A study of Mus musculus with 2 samples.

Results

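Smooth muscle cells of the control mouse abdominal aorta that held few or no Pcp4 transcripts made up most of the aortic smooth muscle recovered. Pcp4 encodes a small IQ-motif protein (Purkinje cell protein 4) that binds calmodulin, the calcium sensor of the cell. The cells came from 1 library of a pool of 9 abdominal aortas of wild-type C57BL/6J mice, taken 2 weeks after an intraperitoneal injection of PBS. A second library came from 7 pooled abdominal aortas after LCWE injection, a model of Kawasaki disease vasculitis in the same strain, so each condition has 1 library and no replicate. The tissue was dissociated with enzymes in a heated dissociator, dead cells were removed, and the ages of the mice are not given in the sources used here. Members were the PBS cells that the authors annotated as vascular smooth muscle (VSMC) and that had fewer than 3 raw UMIs of Pcp4, a UMI being 1 counted RNA molecule. They numbered 3949 of the 4141 PBS smooth muscle cells, of the 5386 PBS cells and of the 10477 cells of the series. That was 95.4% of PBS smooth muscle (Clopper-Pearson interval at 95%, 94.7 to 96.0%) and 73.3% of the PBS library. The remaining 192 PBS smooth muscle cells, with 3 or more Pcp4 UMIs, are called Pcp4-high.

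Vascular smooth muscle cells form the medial layer of the aorta. Their contraction depends on a rise in intracellular calcium, on calmodulin and on myosin light chain kinase, and is carried by smooth muscle actin and myosin. The same cells secrete the elastin, microfibril proteins and collagens that give the aortic wall its recoil and strength. They are known to vary along the vessel and across the wall, and to lower contractile genes when they take on a synthetic state.

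All intervals below cover counting error only: the cells of a group came from 1 library and pooled animals, so no test between groups was possible and no p-value is given. Levels are UMIs summed over the cells of a group per 1000000 UMIs of that group (CPM), with exact Poisson intervals, and a ratio carries its exact conditional interval in brackets. The members held 50945287 UMIs in all, with a median of 11892 per cell and 3389 genes per cell, and the Pcp4-high cells 2523194 UMIs, with a median of 11502.5 per cell and 3297 genes. The Pcp4-high cells thus held 4.72% of the UMIs, and their depth set the precision of nearly every ratio. The median share of mitochondrial UMIs was 7.07% in members and 6.61% in Pcp4-high cells. Of the members, 7 carried a cell barcode that also occurred in the LCWE library, and 8 barcodes were shared in all.

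Pcp4 chose the groups, so its values are a description. Of the members, 3725 held 0 Pcp4 UMIs, 153 held 1 and 71 held 2, and just outside the threshold 32 cells held 3 and 43 held 4. Pcp4 (chromosome 16, 96467606 to 96525793, plus strand, GRCm38) summed to 5.79 CPM in members and 523.5 CPM in Pcp4-high cells. A Pcp4 UMI was found in 5.67% of members, in 0.346% of PBS fibroblasts and in 0.407% of PBS endothelial cells, at median depths of 11892, 6215 and 6284 UMIs. The share of smooth muscle cells that counted as Pcp4-low was 94.0%, 96.0%, 96.3% and 95.1% in the 4 groups of about equal size cut by depth, from the shallowest to the deepest, with no steady order. The highest Pcp4 count was 29 UMIs in 1 cell, and no gap in the distribution separated the groups at the threshold.

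**Figure D1:**
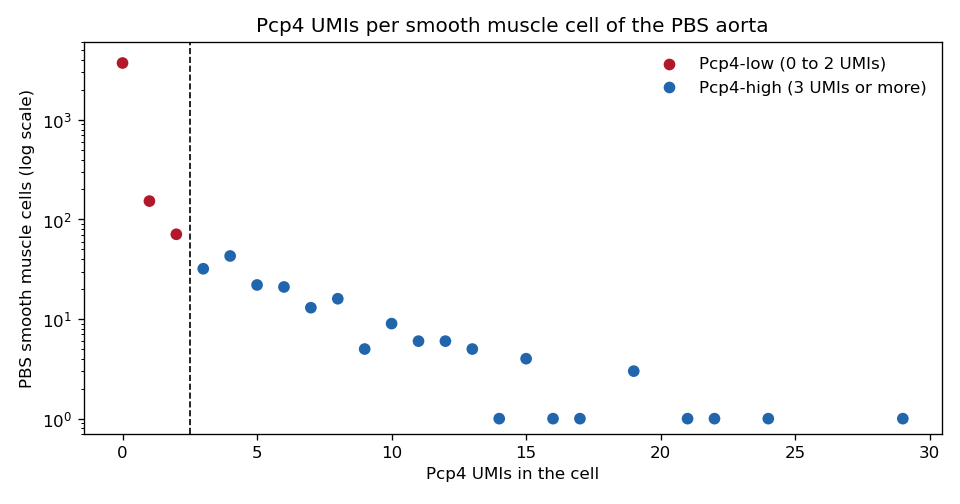
Number of PBS smooth muscle cells (log scale) at each raw Pcp4 UMI count, with Pcp4-low cells in red left of the dashed threshold and Pcp4-high cells in blue right of it. The 3725 cells with 0 UMIs stand far above the 71 with 2, the 32 with 3 and the 43 with 4. No gap separates the groups at the threshold.

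The smooth muscle label fitted the markers. Myh11 (smooth muscle myosin heavy chain), Acta2 (smooth muscle α-actin), Tagln (transgelin) and Cnn1 (calponin) were each found in at least 99.7% of members, at 3595, 24515, 15903 and 1881 CPM. The 5 smooth muscle markers, with Tceal6, summed to 45925 CPM in members and 44780 CPM in Pcp4-high cells, against 452 CPM in PBS fibroblasts and 1799 CPM in PBS endothelial cells. Tceal6, a transcription elongation factor A-like gene, was the sparse one, found in 24.6% of members at 31.8 CPM, with 0.329 CPM in fibroblasts. Markers of T cells, B cells, macrophages, neutrophils, adipocytes and mesothelium each summed to under 3 CPM in members. The fibroblast list is not specific here, since Col1a1 alone gave 1095 CPM in members and was found in 99.7% of them. The other 6 fibroblast markers (Dcn, Lum, Pdgfra, Pi16, Dpt and Serpinf1) summed to 61.0 CPM in members and 48.4 CPM in Pcp4-high cells, against 18771 CPM in fibroblasts. Of the 7 endothelial markers, Pecam1 stood at 9.78 CPM in members and 2.38 CPM in Pcp4-high cells, and the other 6 at 1.45 CPM or less in members. The 8 pericyte markers summed to 5260 CPM in members and 6793 CPM in Pcp4-high cells. Most of that was Rgs5, at 4764 CPM in members and 6270 CPM in Pcp4-high cells, a ratio of 0.760 (0.748 to 0.772). Of the 6 with at least 100 UMIs in both groups together, 0 were at least 1.5-fold higher in members, 1 lower and 5 within. Rgs5, Notch3, Abcc9, Kcnj8 and Cspg4 were each found in over 32% of members and Cox4i2 in 9.83%. Higd1b had 18 UMIs and Ndufa4l2 59 UMIs over all members, and both had 0 in Pcp4-high cells. With 4.72% of the UMIs in Pcp4-high cells, counts this small do not show a difference. The Schwann and neuron list summed to 67.1 CPM in members, nearly all from Uchl1 and S100b with Sox10 at 0, the list of skeletal and cardiac muscle to 10.1 CPM and the haemoglobin genes to 44.0 CPM.

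Each molecule is counted once by a 3′ kit, so levels of different genes can be set side by side without a length term. The most abundant RNA of the members after the nuclear transcript Malat1 (32918 CPM) was Acta2, at 2.45% of all UMIs, followed by Tagln at 1.59%. Next to contractile genes stood matrix genes: Sparc, a collagen-binding glycoprotein, at 9219 CPM, Mgp, the matrix Gla protein that inhibits calcification, at 7090 CPM, and Eln, the elastin gene, at 6855 CPM. As a description of the class, 34 of the 1440 genes at 100 CPM or more were at least 20-fold higher in members than in both PBS fibroblasts and PBS endothelial cells (2.36%, a threshold chosen after the values were seen). They included Acta2, Tagln, Myl9, Tpm2, Myh11, Cnn1 and Lmod1 of the contractile apparatus, the integrin Itga8, the intermediate filament gene Des, the potassium channel subunits Kcnmb1 and Kcnab1, the ATP-gated channel P2rx1 and Myocd, the coactivator of serum response factor that drives contractile genes. Myocd stood at 100.5 CPM in members, 1.31 CPM in fibroblasts and 2.93 CPM in endothelial cells. The authors' classes were defined on these same genes, so the contrast describes the class and supports nothing further.

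Contractile genes stood within 1.5-fold of each other in Pcp4-low and Pcp4-high cells. Acta2 stood at 24515 CPM in members and 22827 CPM in Pcp4-high cells, a ratio of 1.07 (1.07 to 1.08). For Myh11 the levels were 3595 CPM in members and 3418 CPM in Pcp4-high cells, a ratio of 1.05 (1.03 to 1.07). Tagln had 15903 CPM in members and 16870 CPM in Pcp4-high cells, a ratio of 0.943 (0.934 to 0.952). Across all genes with at least 100 UMIs in both groups together, 10874 in number, 598 were at least 1.5-fold higher in members (5.5%) and 364 at least 1.5-fold lower (3.35%), together 8.85%. None of the 30 contractile genes was among them, and their log2 ratios had a median of 0.07, beside 0.01 over all genes tested. The 2 that lay farthest out were Itga8, at 1444 CPM in members and 1044 CPM in Pcp4-high cells, and Des (desmin), at 426 CPM in members and 635 CPM in Pcp4-high cells. The log2 ratio of Des, -0.576, was only just inside 1.5-fold. In cells thinned to 5000 UMIs, Des averaged 2.01 UMIs in cells with 0 Pcp4 UMIs. In the bins with 1 or more it averaged between 2.54 (4 to 5) and 4.32 (11 or more).

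Most of the genes past 1.5-fold were sparse. Of the 7961 genes with at least 500 UMIs, 148 (1.86%) were past 1.5-fold upward and 97 (1.22%) downward. Among all 10874, the ratio was past 1.5-fold with an interval clear of 1 in 216 genes (1.99%) that were higher in members and 215 (1.98%) that were lower. At equal levels a gene had a median of 52.2 UMIs expected in the Pcp4-high cells. The plot of ratios against level shows the widening at low levels, and the microfibril genes standing apart at high ones.

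**Figure D2:**
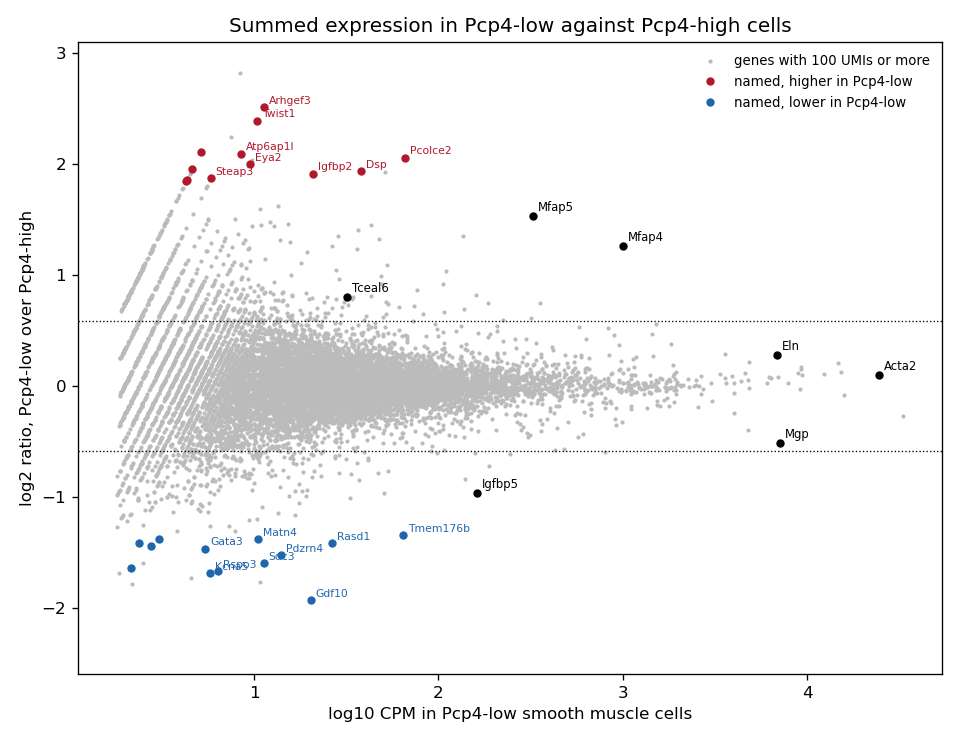
Each point is 1 of 10874 genes, with its level in Pcp4-low cells (log10 CPM) against its log2 ratio of Pcp4-low over Pcp4-high, and dotted lines at 1.5-fold. Genes of the ranking rule that the text names are coloured (those under 300 UMIs in both groups together are unlabelled), other genes described are black, Mfap5 and Mfap4 lie above the upper line at 327 and 1002 CPM, and Acta2 lies near 0.

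The regulators of contractile genes gave no member past 1.5-fold among 18 tested, beside 8.85% over all genes. Among genes with at least 500 UMIs the shares were 1.86% higher and 1.22% lower. Myocd had 100.5 CPM in members and 99.1 CPM in Pcp4-high cells, a log2 ratio of 0.02, and Srf, its DNA-binding partner, 57.4 CPM in members and 64.6 CPM in Pcp4-high cells. Since Pcp4 binds calmodulin, calmodulin and its partners were listed apart, and 0 of 20 passed 1.5-fold, with a median log2 ratio of -0.03. These lists and the contractile one were not matched to genes of like level, so a count of 0 need not be particular to them. The calmodulin genes Calm2 and Calm3 had 674 and 235 CPM in members and 751 and 241 CPM in Pcp4-high cells. Mylk, the myosin light chain kinase that calmodulin activates, had 1070 CPM in members and 1046 CPM in Pcp4-high cells. Mylk4, of the same kinase family but outside this list and the contractile one, did differ. It had 135 CPM in members and 52.7 CPM in Pcp4-high cells, a log2 ratio of 1.36. Pcp4l1, a relative of Pcp4 with its own IQ motif, had 316 CPM in members and 351 CPM in Pcp4-high cells, and was found in 93.2% of members, most of which held no Pcp4 UMI.

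Among 25 genes of calcium handling and ion channels, 0 were past 1.5-fold upward and 3 downward, beside 5.5% and 3.35% over all genes. Kcna5, a voltage-gated potassium channel, stood at 5.77 CPM in members and 18.6 CPM in Pcp4-high cells (ratio 0.310, 0.227 to 0.431). Kcnj8, the pore of the vascular ATP-sensitive potassium channel, stood at 33.6 CPM in members and 58.3 CPM in Pcp4-high cells (ratio 0.577, 0.487 to 0.687). Pln, phospholamban, which restrains the calcium pump of the sarcoplasmic reticulum, stood at 6.26 CPM in members and 10.3 CPM in Pcp4-high cells (ratio 0.608, 0.407 to 0.945). The pump itself, Atp2a2, and the large-conductance potassium channel subunits Kcnma1 and Kcnmb1 lay within 1.5-fold, with log2 ratios of 0.16, 0.07 and 0.12. Of 27 vasoactive receptors and cyclic nucleotide genes, 3 were higher and 1 lower. Adra1a, the α1A adrenergic receptor, had 15.4 CPM in members and 30.5 CPM in Pcp4-high cells (ratio 0.504, 0.398 to 0.645). On the other side stood the sphingosine-1-phosphate receptor S1pr3, at 7.87 CPM in members and 2.77 CPM in Pcp4-high cells, the vasodilator peptide gene Adm, at 12.9 CPM in members and 4.76 CPM in Pcp4-high cells, and the natriuretic peptide clearance receptor Npr3, at 13.3 CPM in members and 8.32 CPM in Pcp4-high cells.

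Elastic fibre genes past 1.5-fold were all higher in members. Microfibril-associated proteins decorate the fibrillin scaffold on which elastin is laid down. Mfap4 (chromosome 11, 61485431 to 61488900, plus strand, GRCm38) had 51050 UMIs in members and 1056 UMIs in Pcp4-high cells, which is 1002 CPM (993 to 1011) in members and 418.5 CPM in Pcp4-high cells, a ratio of 2.39 (2.25 to 2.55). Mfap5 (chromosome 6, 122505845 to 122529290, plus strand) had 16639 UMIs in members and 285 UMIs in Pcp4-high cells, 327 CPM in members and 113 CPM in Pcp4-high cells, a ratio of 2.89 (2.57 to 3.26). Ltbp2, a latent TGF-β binding protein of microfibrils, had 36.3 CPM in members and 15.5 CPM in Pcp4-high cells, a ratio of 2.35 (1.71 to 3.31). These were the 3 of 16 elastic fibre genes past 1.5-fold, and none was lower by that much. Over all genes 5.5% were higher and 3.35% lower. The list's median log2 ratio was 0.14. Eln itself differed less, at 6855 CPM in members and 5645 CPM in Pcp4-high cells, and Fbn1 (fibrillin-1), Fbln5 (fibulin-5) and Lox (lysyl oxidase) had log2 ratios of 0.26, 0.12 and 0.20. Mfap4 and Mfap5 were more abundant still in PBS fibroblasts, at 1755 and 1334 CPM. Without the cells that held 2 or more UMIs of the fibroblast (Col1a1 aside), endothelial or macrophage markers, a filter added after seeing the data, 3150 members and 169 Pcp4-high cells were left, and the ratios were 2.46 for Mfap4 and 2.92 for Mfap5.

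In single cells thinned to 5000 UMIs each, which left out 85 shallower members and no Pcp4-high cell, the median of Mfap4 was 4 UMIs in members (quartiles 2 and 7) and 1 in Pcp4-high cells (quartiles 0 and 3). The ranges overlapped, and Mfap4 had 0 thinned UMIs in some cells of both groups. A thinned Mfap5 UMI was found in 57.3% of members and 26.6% of Pcp4-high cells, and unthinned in 69.8% of members and 39.1% of Pcp4-high cells. Both genes were thus found in both groups, at different levels.

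The shift did not start at the threshold, and for Mfap4 and Mfap5 most of it lay between 0 and 2 Pcp4 UMIs. Over cells with 0, 1, 2, 3, 4 to 5, 6 to 10 and 11 or more Pcp4 UMIs, mean Mfap4 per thinned cell was 5.15, 3.05, 2.24, 2.19, 2.00, 2.05 and 1.45 UMIs. The Mfap4 intervals of the bins from 2 to 10 Pcp4 UMIs overlapped. In Mfap4, members with 1 or 2 Pcp4 UMIs lay nearer to the Pcp4-high mean of 1.96 UMIs than to members with none. Mfap5 over the same bins averaged 1.65, 0.886, 0.643, 0.562, 0.400, 0.594 and 0.355 UMIs. Pcolce2 had 0.335 UMIs at 0 Pcp4 UMIs and between 0.0462 (4 to 5) and 0.129 (11 or more) in the other bins, with no order among them. Gdf10 ran the other way, with 0.0947, 0.181, 0.257, 0.219, 0.385, 0.406 and 0.548 UMIs, and Tmem176b with 0.317, 0.476, 0.557, 0.562, 0.677, 1.02 and 1.10 UMIs. Acta2 moved little, between 110.3 and 122.7 UMIs over all bins. The bins hold 3645, 149, 70, 32, 65, 64 and 31 cells, and a cell's Pcp4 count is itself a sparse sample of its Pcp4 RNA.

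**Figure D3:**
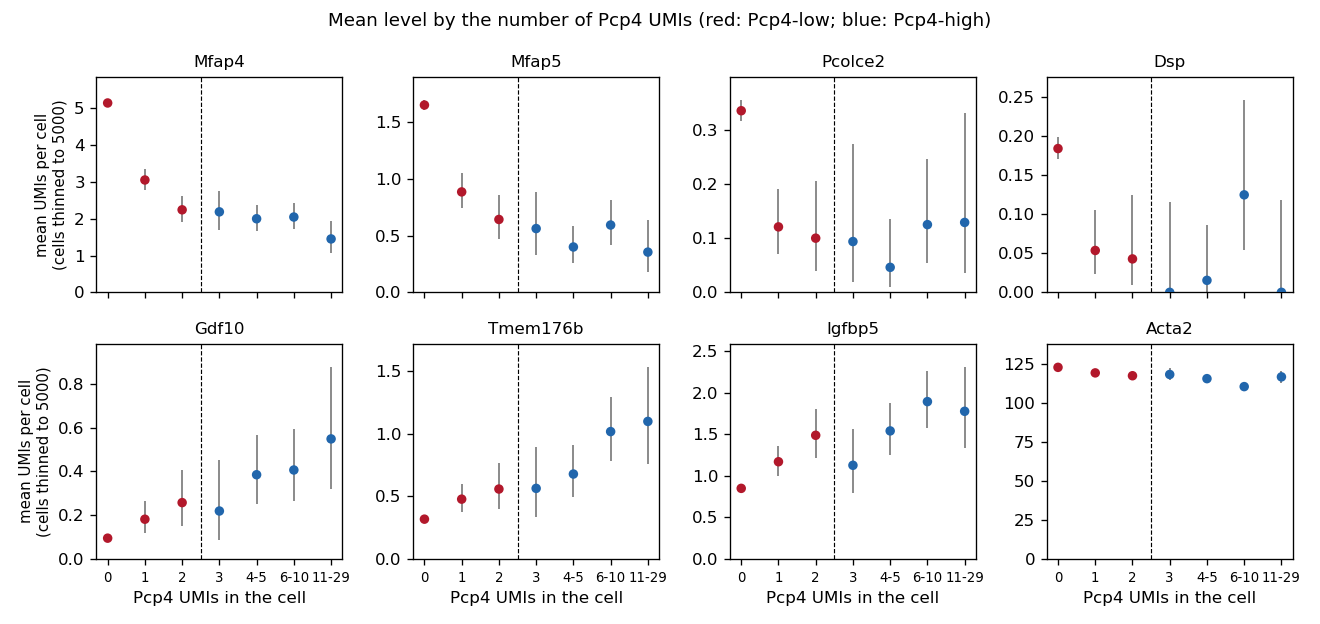
Mean UMIs per cell thinned to 5000 UMIs (points, with exact Poisson intervals as bars) for 8 genes over the raw Pcp4 UMI count of the cell, with Pcp4-low bins in red left of the dashed line and Pcp4-high bins in blue right of it. Mfap4 falls from 5.15 at 0 Pcp4 UMIs to 2.24 at 2 and lies between 1.45 and 2.19 in the higher bins. Tmem176b runs up from 0.317 to 1.10, and Acta2 stays between 110.3 and 122.7.

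The genes with the highest ratios in members were, by the ranking rule, found in 3.70% (Eef1a2) to 40.6% (Pcolce2) of members. The best measured was Pcolce2 (chromosome 9, 95637601 to 95698096, plus strand), which enhances the trimming of procollagen, at 66.1 CPM in members and 15.9 CPM in Pcp4-high cells, a ratio of 4.17 (3.05 to 5.84), found in 40.6% of members and 17.7% of Pcp4-high cells. Dsp, desmoplakin, a linker of desmosomes to intermediate filaments, had 1933 UMIs in members and 25 UMIs in Pcp4-high cells, 37.9 CPM in members and 9.91 CPM in Pcp4-high cells, a ratio of 3.83 (2.59 to 5.93). Fibroblasts held 888 CPM of Pcolce2 and 0.822 CPM of Dsp. Igfbp2, an insulin-like growth factor binding protein, had a ratio of 3.77 (2.24 to 6.93), but only 14 UMIs in Pcp4-high cells and a log2 ratio of 0.88 in cells of 8000 to 16000 UMIs, against 1.92 in all cells.

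Among factors that act in the nucleus, Twist1, a helix-loop-helix factor of mesenchyme, had 530 UMIs in members and 5 UMIs in Pcp4-high cells, a ratio of 5.25 (2.24 to 16.2). Eya2, a transcriptional coactivator, had 485 UMIs in members and 6 UMIs in Pcp4-high cells, and the nuclear receptor gene Nr2f1 218 in members and 3 in Pcp4-high cells. Arhgef3, a guanine nucleotide exchange factor, had 577 UMIs in members and 5 UMIs in Pcp4-high cells, a ratio of 5.72 (2.44 to 17.7). Col6a6, a collagen VI chain, had 262 UMIs in members and 0 in Pcp4-high cells, which makes it at least 4.33-fold higher against a floor of 3 UMIs over the group, while the exact interval of its ratio begins at 3.49. Atp6ap1l, Zfp13, Steap3, a ferrireductase, and Eef1a2, a translation elongation factor, completed the named genes, with 432, 235, 296 and 220 UMIs in members and 5, 3, 4 and 3 UMIs in Pcp4-high cells. The intervals of these 9 genes span a wide range, and the lowest lower bound was 1.22 (Nr2f1). A contrast of 0 against 10 or more Pcp4 UMIs leaves 40 cells on the high side. The log2 ratio was then -0.11 for Col6a6, -0.33 for Zfp13, -0.35 for Eef1a2, -0.38 for Nr2f1 and 0.07 for Steap3. Over all 192 Pcp4-high cells Col6a6 had 0 UMIs, Steap3 4 and the other genes 3 each. These values thus sit at or next to the floor of 3 UMIs and cannot show a change of direction. In cells thinned to 5000 UMIs the log2 ratio stood under 1.5-fold at 0.44 for Zfp13, 0.48 for Eef1a2 and 0.56 for Nr2f1. Another 3 ranked genes carry no approved name. Of the 15, 8 had a higher CPM in fibroblasts than in members, among them Pcolce2, Twist1 and Col6a6. The 6 fibroblast markers without Col1a1 stood at 61.0 CPM in members and 48.4 CPM in Pcp4-high cells, and Pecam1 at 9.78 CPM in members and 2.38 CPM in Pcp4-high cells. Without the cells that held such markers, the log2 ratio was 2.31 for Pcolce2, 1.80 for Dsp and 2.11 for Twist1.

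The genes lowest in members relative to Pcp4-high cells began with a secreted protein. Gdf10 (chromosome 14, 33923587 to 33937983, plus strand), a growth factor of the TGF-β superfamily, stood at 20.3 CPM in members and 77.7 CPM in Pcp4-high cells, a ratio of 0.262 (0.224 to 0.306). It was found in 16.0% of members and 46.4% of Pcp4-high cells, and at 819 CPM in PBS fibroblasts. Rspo3, a secreted enhancer of Wnt signalling, stood at 6.34 CPM in members and 20.2 CPM in Pcp4-high cells, a ratio of 0.314 (0.233 to 0.430). Tmem176b, a membrane protein, had the most UMIs of the named genes on this side, with 64.2 CPM in members and 163 CPM in Pcp4-high cells, a ratio of 0.393 (0.355 to 0.437). It was found in 42.2% of members and 79.2% of Pcp4-high cells.

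Further genes on this side were Rasd1, a Ras-like GTPase gene induced by dexamethasone, with 26.5 CPM in members and 70.9 CPM in Pcp4-high cells, and Sdc3, a heparan sulfate proteoglycan of the cell surface, with 11.3 CPM in members and 34.1 CPM in Pcp4-high cells. Pdzrn4, a gene of the PDZ and RING domain family, had 14.1 CPM in members and 40.4 CPM in Pcp4-high cells, and only 0.329 CPM in fibroblasts. Matn4, an extracellular matrilin, had 10.5 CPM in members and 27.3 CPM in Pcp4-high cells, and Gata3, a zinc finger transcription factor, 5.44 CPM in members and 15.1 CPM in Pcp4-high cells. The sparser Ddit4l, Mettl25, Pcdh1 and Arsj had 110, 141, 121 and 155 UMIs in members and 17, 19, 16 and 20 UMIs in Pcp4-high cells. Of these, Pcdh1 was no longer past 1.5-fold in cells thinned to 5000 UMIs, with a log2 ratio of -0.27 against -1.42 in all UMIs. Gata3 lay within 1.5-fold with 0 against 10 or more Pcp4 UMIs, at -0.53. Kcna5, given above, also belongs to this side, and 1 ranked gene has no approved name.

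Other matrix lists held genes on both sides, beside 5.5% higher and 3.35% lower over all genes. Of 20 collagen genes 1 was higher and 3 lower. Col14a1, a collagen that binds to the surface of fibrils, had 51.4 CPM in members and 13.5 CPM in Pcp4-high cells, a ratio of 3.81 (2.72 to 5.52), beside 1146 CPM in fibroblasts, and 4.66 (3.07 to 7.45) without the cells that held other cell types' markers. The basement membrane chains Col4a3 and Col4a4 had 6.58 and 19.6 CPM in members and 11.1 and 30.9 CPM in Pcp4-high cells, and Col12a1 7.28 CPM in members and 12.7 CPM in Pcp4-high cells. The abundant Col1a1, Col1a2, Col3a1, Col4a1 and Col18a1 lay within 1.5-fold, with log2 ratios between -0.03 and 0.38. Of 31 proteoglycan and other matrix genes, 3 were higher and 6 lower. Prelp, a leucine-rich repeat proteoglycan, had 109.6 CPM in members and 53.5 CPM in Pcp4-high cells. Itih4, of the inter-α-trypsin inhibitor heavy chain family, had 105.5 CPM in members and 55.9 CPM in Pcp4-high cells. Nid1, a linker of basement membranes, had 46.7 CPM in members and 80.5 CPM in Pcp4-high cells, Comp, the cartilage oligomeric matrix protein, 16.6 CPM in members and 32.1 CPM in Pcp4-high cells, and Acan, aggrecan, 8.93 CPM in members and 15.5 CPM in Pcp4-high cells. Of 17 proteases and inhibitors 0 were higher and 3 lower, among them Timp4, an inhibitor of metalloproteinases, at 53.2 CPM in members and 90.4 CPM in Pcp4-high cells.

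Secreted signals split within their lists, beside 5.5% higher and 3.35% lower over all genes. Among 14 Wnt and hedgehog genes, 2 were higher and 2 lower. Wif1, which binds and inhibits Wnt ligands, had 43.3 CPM in members and 15.9 CPM in Pcp4-high cells, a ratio of 2.73 (2.00 to 3.83), and was nearly absent from fibroblasts at 0.822 CPM. Sfrp1, another Wnt inhibitor, had 204 UMIs in members and 4 UMIs in Pcp4-high cells, with an interval of 0.972 to 9.36 that holds 1. Frzb, of the same family, went the other way with Rspo3, at 12.2 CPM in members and 19.4 CPM in Pcp4-high cells. Among 26 TGF-β and BMP genes, 1 was higher, the coreceptor Eng, with 14.3 CPM in members and 7.93 CPM in Pcp4-high cells, and 2 were lower. Of these the ligand gene Bmp2 stood at 20.4 CPM in members and 31.3 CPM in Pcp4-high cells. Among 24 growth factor genes 2 were higher and 2 lower. Igfbp5, an insulin-like growth factor binding protein, had 8252 UMIs in members and 800 UMIs in Pcp4-high cells, 162 CPM in members and 317 CPM in Pcp4-high cells, a ratio of 0.511 (0.475 to 0.550).

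Of 34 Hox and regional patterning genes, 4 were higher and 2 lower, beside 5.5% and 3.35% over all genes, with a median log2 ratio of 0.06. The 3 Hox genes on the higher side were neighbours in the Hoxb cluster, Hoxb6, Hoxb7 and Hoxb8, with 304, 486 and 161 UMIs in members and 8, 11 and 3 UMIs in Pcp4-high cells. The interval of Hoxb7 (1.21 to 4.41) stayed above 1 and those of Hoxb6 and Hoxb8 reached below it. Hoxd9 and Pax1 were on the lower side, Pax1 at 16.8 CPM in members and 27.3 CPM in Pcp4-high cells. The abundant positional genes Foxc1, Osr1, Hoxa10 and Tbx18 had log2 ratios of -0.24, 0.49, -0.15 and 0.21.

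**Figure D4:**
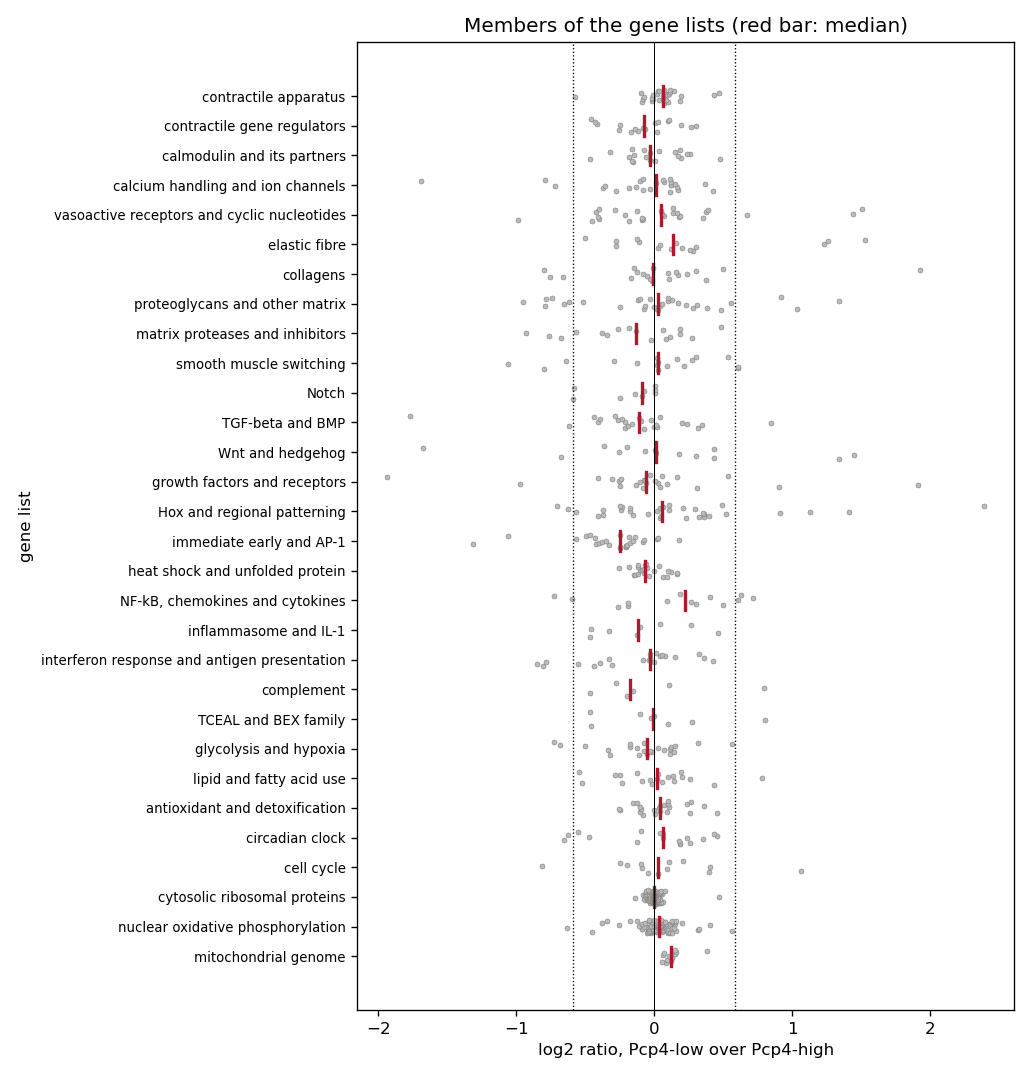
Each grey point is 1 gene of a list, placed by its log2 ratio of Pcp4-low over Pcp4-high, with a red bar at the list's median and dotted lines at 1.5-fold. The contractile and ribosomal lists hold no point past the lines, the elastic fibre list holds 3 to the right, and the immediate early list has the lowest median, -0.25.

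Lists of cell state differed in how many genes passed 1.5-fold, beside 8.85% over all genes. Among genes with at least 500 UMIs the shares were smaller, at 1.86% higher and 1.22% lower. The lists were not matched to genes of like level, so a count of 0 need not be particular to a list. The 27 immediate early and AP-1 genes, which respond within minutes to stimulation and to tissue handling, had a median log2 ratio of -0.25, 0 were higher and 2 lower (Egr2 and Myc, at 7.83 and 5.71 CPM in members and 19.4 and 11.9 CPM in Pcp4-high cells). Fos had 4019 CPM in members and 4763 CPM in Pcp4-high cells. None of the 23 heat shock and unfolded protein genes, the 82 ribosomal protein genes, the 13 genes of the mitochondrial genome or the 23 antioxidant genes passed 1.5-fold, with medians of -0.06, -0.00, 0.12 and 0.04. Of 95 nuclear genes of oxidative phosphorylation, 1 passed, Cox6b2, which was lower in members. Of 17 genes linked to smooth muscle switching 2 were higher and 3 lower, of which Tnfrsf11b (osteoprotegerin), a decoy receptor, was the farthest out at 17.5 CPM in members and 36.5 CPM in Pcp4-high cells. Among 14 NF-kB, chemokine and cytokine genes 3 were higher and 2 lower, with a median of 0.23, and all 5 stood at 15.2 CPM or less in members. Of 21 interferon and antigen presentation genes 0 were higher and 3 lower (Isg15, Ifit3 and Stat2), and none of the 8 inflammasome genes tested passed.

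The remaining lists each gave 1 or 2 genes past 1.5-fold, beside 8.85% over all genes. Notch had 1 lower of 9 (Notch1), complement 1 higher of 6, and lipid use 1 higher of 20 (Apoe, at 28.0 CPM in members and 16.2 CPM in Pcp4-high cells). Glycolysis and hypoxia had 2 lower of 24, among them the glucose transporter gene Slc2a4, and the circadian clock 2 lower of 17 (Per3 and Dbp). Cell cycle genes had 1 higher and 1 lower of 13, Mcm2 and Ccnd1, both with intervals that hold 1. Tceal6 was the 1 of 8 TCEAL and BEX genes past 1.5-fold, at 31.8 CPM in members and 18.2 CPM in Pcp4-high cells (ratio 1.75, 1.30 to 2.39), while its relative Tceal3 had 37.9 CPM in members and 35.3 CPM in Pcp4-high cells. Reads of these near relatives can be hard to assign.

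Across the 4056 PBS smooth muscle cells of 5000 UMIs or more, all of 1 library, correlations with Pcp4 were weak for every one of the 5556 genes measured. The highest Pearson r of thinned log counts belonged to Tmem176b (0.165), Gdf10 (0.161), Nrtn (0.155), Mustn1 (0.130) and Igfbp5 (0.129), followed by Sparcl1, Rgs5, Rasd1, Palld and Mgp at 0.114 to 0.0998. The lowest belonged to Mfap4 (-0.208), Itga8 (-0.179) and Mfap5 (-0.146). In counts this sparse such values only rank genes. Mustn1, a small nuclear protein of muscle, had 799 CPM in members and 1209.6 CPM in Pcp4-high cells, a ratio of 0.660 (0.636 to 0.685), just past 1.5-fold.

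The members also varied among themselves. In 3864 members thinned to 5000 UMIs, the Fano factor (variance over mean, with a median of 1.02 over 7755 genes) was highest for Hspb1 (35.6), a small heat shock protein, and Mgp (31.7). Malat1 (25.7), Eln (15.5), Acta2 (12.7), the inducible chaperone Hspa1b (11.9) and Fos (10.2) came next. The first 15 also held Rgs5 (9.94), a regulator of G protein signalling, Ctgf (9.63), a matricellular protein, Sparcl1 (8.41), Tmsb4x (8.33), Fn1 (8.02), Crip1 (7.95), Sparc (7.83) and Actb (7.52). Of these 15, 14 were also among the first 15 at 3000 thinned UMIs and 13 at 8000. Hspb1 ran from 2 thinned UMIs at the 5th percentile of members over a median of 8 to 50 at the 95th. Mgp ran from 7 over 28 to 98, and Acta2 from 65 over 119 to 192.

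These genes varied in groups, which were put together after their correlations in the same cells had been seen and are therefore a description. Contractile genes (Acta2, Tagln, Myl9, Tpm2, Cnn1, Csrp1, Myh11) had a median pairwise r of 0.36 over the 3864 members, a group around Mgp (with Tm4sf1, Serpine2, Cd200 and Cst3) 0.32, and matrix genes around Eln (Sparc, Col1a2, Col3a1, Mfap4, Mfap5) 0.35. Heat shock genes (Hspb1, Hspa8, Hspa1a, Hspa1b, Hsp90aa1) reached 0.47, immediate early genes (Fos, Egr1, Junb, Fosb, Atf3) 0.49 and the pair Rgs5 and Fn1 0.51. A group around Sparcl1 (with Sorbs2, Mustn1, Thbs1 and Crip1) had a median r of 0.33. Between the contractile and Mgp groups the median r was -0.24, with Mgp against Acta2 at -0.43. All these cells share 1 library and the same thinned total.

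**Figure D5:**
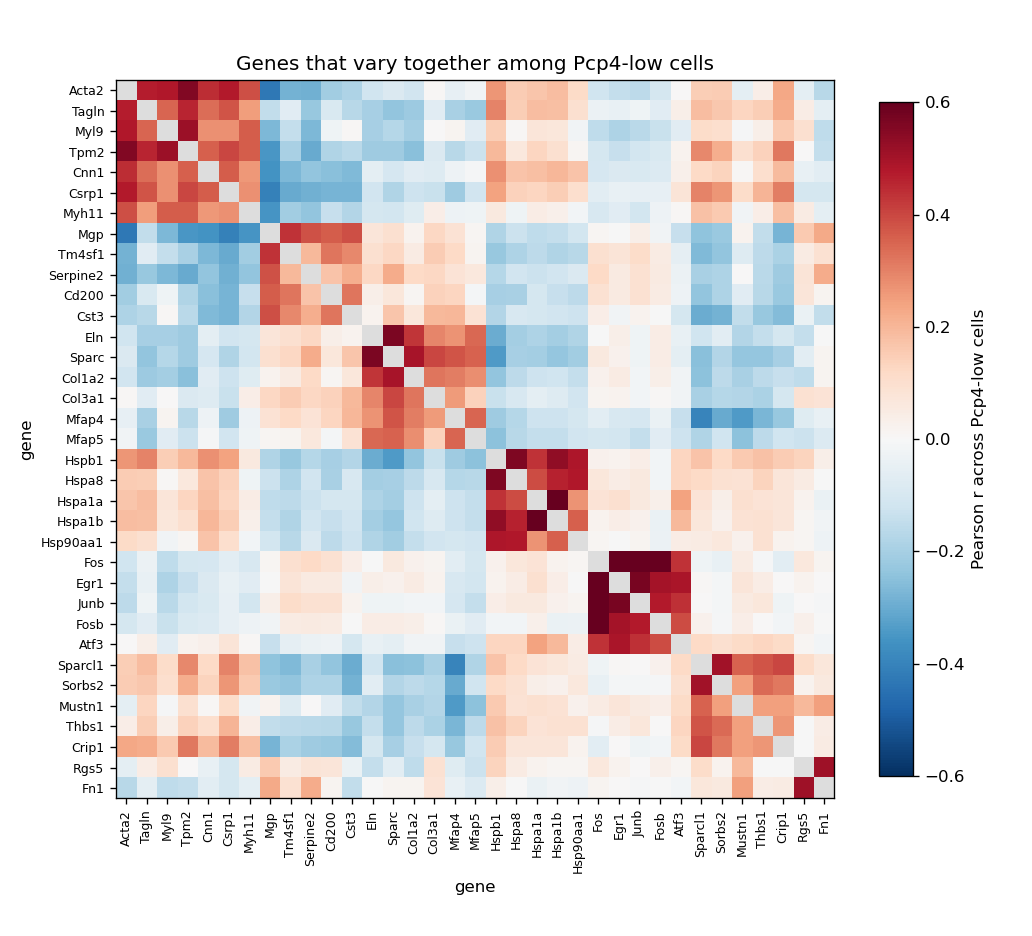
Pearson r of thinned log counts between 35 genes across 3864 Pcp4-low cells, from -0.6 (blue) to 0.6 (red, also for values above it), with the diagonal in grey and genes ordered by group. Red blocks along the diagonal mark genes that vary together, and the blue block between the contractile genes and the Mgp group holds a median of -0.24.

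Members at the ends of the Mgp range differed in contractile genes. In the 10% of members highest in Mgp (the top decile, 386 cells, a range and not a cell type), Acta2 averaged 87.7 thinned UMIs, against 150.2 in the lowest decile. Csrp1, a LIM protein of smooth muscle, averaged 5.33 in the highest and 13.9 in the lowest decile of Mgp, and Myh11 12.7 in the highest and 21.9 in the lowest. Median raw depth was 11061.5 UMIs in the highest decile and 13561.5 in the lowest, and the part of depth in the contrast was not tested. Eln changed little over the same cells, at 33.3 in the highest and 30.3 in the lowest decile of Mgp. Mgp itself was lower in members, at 7090 CPM, than in Pcp4-high cells, at 10116 CPM, a ratio of 0.701 (0.692 to 0.710).

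Members at the ends of the Eln range differed in matrix genes. Sparc averaged 66.3 thinned UMIs in the highest decile of Eln and 28.6 in the lowest, Col1a2 13.3 in the highest and 5.98 in the lowest, and Mfap5 3.38 in the highest and 0.645 in the lowest. Hspb1 was at 6.28 in the highest decile of Eln and 26.5 in the lowest. In the highest decile of Hspb1, in turn, Hspa1b averaged 8.81, against 0.427 in the lowest decile, Hspa8 23.6 against 5.56, and Eln 20.9 against 44.2. Fos deciles separated the immediate early genes, with Egr1 at 11.9 in the highest and 0.873 in the lowest decile, and a median mitochondrial share of 6.31% in the highest and 8.62% in the lowest. The cells were dissociated at warm temperature with enzymes, per the labels, and the part of handling in the heat shock and immediate early genes was not tested.

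The highest decile of Sparcl1 was low in Mfap4, at 1.62 thinned UMIs against 5.69 in the lowest decile (386 of the members with 0 thinned Sparcl1 UMIs), and high in Crip1, a LIM protein, at 19.3 against 6.40. For Mfap4 that is below the 1.96 thinned UMIs that Pcp4-high cells averaged. Sparcl1 itself had 244 CPM in members and 374 CPM in Pcp4-high cells. The highest decile of Rgs5 held 26.0 UMIs of Fn1 (fibronectin), against 9.37 in the lowest decile.

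Upstream sequences are shown for 3 genes of these groups, to let the reader see motifs that are known to bind the regulators of heat shock and contractile genes. They come from RefSeq (GRCm38.p6) and cover bases 200 to 51 before the RefSeq start, 5′ to 3′ on the gene's strand. Heat shock factor 1 binds inverted repeats of GAA, searched here as GAANNTTC, which reads the same on both strands and is in capitals in the first 2 sequences. Hspb1 lies at chr5:135887719-135887868 on the plus strand and Hspa1b at chr17:34959289-34959438 on the minus strand. Serum response factor binds the CArG box, in capitals in Myl9, the regulatory light chain gene, at chr2:156775264-156775413 on the plus strand.
Hspb1: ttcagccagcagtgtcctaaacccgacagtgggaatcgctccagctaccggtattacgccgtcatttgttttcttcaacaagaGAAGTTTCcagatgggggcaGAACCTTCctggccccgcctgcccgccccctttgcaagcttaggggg
Hspa1b: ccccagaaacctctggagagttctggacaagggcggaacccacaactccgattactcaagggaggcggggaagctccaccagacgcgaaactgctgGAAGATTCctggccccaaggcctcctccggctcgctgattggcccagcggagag
Myl9: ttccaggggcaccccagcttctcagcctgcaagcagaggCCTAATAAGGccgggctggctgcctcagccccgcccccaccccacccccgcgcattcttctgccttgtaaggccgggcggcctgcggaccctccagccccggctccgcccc

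Hspb1 held GAANNTTC at 117 and 97 bases before the start, and Hspa1b at 104. Of the 5 heat shock genes above, 3 were in the sequence table. All 3 held the motif in the 250 bases before the start, beside 6.69% of all 32851 windows of that length. The motif stood at 104 in both Hspa1a and Hspa1b, which are not independent sequences. Of the 7 contractile genes 5 were in the table and 1, Myl9, held an exact CArG box, at 161 bases before the start, beside 1.47% of all windows. These are matches of letters and not measured binding. Hspa1a and Hspa1b are near-identical genes, so their counts of 20018 and 22044 UMIs in members may be divided between them with error.

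In the LCWE library 93 smooth muscle cells were annotated, 92 of them with fewer than 3 Pcp4 UMIs (98.9%, 94.2 to 100%), at a median of 8547 UMIs for the 93. Their summed level was 20149 CPM of Acta2 and 336 CPM of Mfap4, against 24515 and 1002 CPM in the PBS members, and 2277 CPM of Sparcl1 against 244 CPM. Markers of other cell types were also higher in the LCWE smooth muscle than in the PBS members, at 1365 against 44.0 CPM for haemoglobin genes, 257 against 2.57 CPM for neutrophils, 256 against 13.5 CPM for endothelium, 136 against 2.57 CPM for macrophages and 77.8 against 0.294 CPM for T cells. Their part in the differences was not tested. With 1 library per condition these values carry no test, and the library and the treatment cannot be told apart.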

How the data were processed

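Abdominal aortas were pooled (9 after PBS, 7 after LCWE), dissociated with enzymes and freed of dead cells, and 10x Genomics Single Cell 3′ V3 libraries were made, per the labels' protocols. Cell Ranger 3.0.2 and mm10 are named in the submitters' processing notes. The authors deposited raw UMI counts per gene (27998) and cell, and a table with each cell's class, total and percent of mitochondrial UMIs. Totals recomputed from the deposited counts equalled the table in all 10477 cells. The deposited calls of dead cells and doublets were negative for all listed cells, so no doublet caller was run.

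The PBS library alone entered the main contrast. Classes are the authors' broad ones. UMIs were summed per group, with exact Poisson, conditional binomial and Clopper-Pearson intervals at 95% (SciPy 1.17.1, NumPy 2.4.6). They cover counting error only. For log2 ratios a sum under 3 UMIs was raised to 3. Genes needed 100 UMIs in both groups together, and past 1.5-fold counted as called, since 1 library per condition allows no test. Per-cell levels, Fano factors and correlations used cells thinned to 5000 UMIs, genes with a mean of 0.05 (Fano) or 0.1 (correlation) thinned UMIs.

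Named genes are the 15 highest and 15 lowest ratios past 1.5-fold whose interval did not reach 1. No single cell could hold over 20% of the UMIs, and the level had to reach 5% of that in the PBS class (50 or more cells) where the gene was most abundant. Pcp4, mitochondrial, haemoglobin, antigen receptor, Xist and Y-linked genes were left out, and genes without an approved name were not named. A few genes of the rule and the lists are not reported here. From each list up to 4 members with the most UMIs could be named, those past 1.5-fold first. Genes named beyond these, and the 20-fold threshold on class levels, were chosen after their values were seen. The members and lists were chosen with earlier results of these data known. The ratio procedure was tested on simulated data. Gene positions are from GENCODE M21 (GRCm38).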

Additional observations from a re-analysis of the deposited data

How the results depend on the processing

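No paired analysis was possible because each condition is 1 library and the groups compared come from the same library. The 598 genes higher and 364 lower in members became 297 and 177 with 0 Pcp4 UMIs against 1 or more, and 148 and 97 with at least 500 UMIs per gene, where fewer genes are tested. With 0 against 10 or more Pcp4 UMIs, which leaves 40 cells on the high side, 1685 genes were lower, and with at least 20 UMIs per gene 1405 were. In both, sums under 3 UMIs were raised to 3, which lowers such ratios, by an extent that was not tested. The share of higher genes among those past 1.5-fold was 62.2% as reported, 34.7% with 0 against 10 or more and 30.7% with at least 20 UMIs. The share of PBS smooth muscle in the Pcp4-low group was 89.95%, 93.6% and 97.2% with fewer than 1, 2 and 5 UMIs, and 96.3% with fewer than 3 per 10000 UMIs. Among the higher named genes, the log2 ratio was negative only with 0 against 10 or more Pcp4 UMIs. That held for Col6a6 (-0.11), Zfp13 (-0.33), Eef1a2 (-0.35), Nr2f1 (-0.38) and 1 gene without an approved name (-0.34). Over all 192 Pcp4-high cells Col6a6 had 0 UMIs and the others 3 each. These values thus sit at the floor of 3 UMIs and cannot show a change of direction. Of the 30 named genes, 30 kept their direction in cells of 8000 to 16000 UMIs, in thinned cells and in cells of at most 10% mitochondrial UMIs, and 25 of 30 stayed past 1.5-fold when thinned (not Zfp13, Eef1a2, Nr2f1, Pcdh1 and 1 gene without an approved name). Of 371 values of list medians under alternatives, 369 stayed within the median counting interval of the list's genes. The planned removal of cells with 2 or more UMIs of other cell types' markers left 32 members and 2 Pcp4-high cells and gave no value. With Col1a1 not counted, a choice made after seeing the data, it gave 565 higher and 362 lower genes. Depth limits mainly the Pcp4-high side.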
